A study of Mus musculus with 11 samples.

Results

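Serpins are a superfamily of proteins that share one fold, and the mouse genome carries a large number of them. The 59 genes described here were chosen by a symbol that starts with Serpin in the mRNA array table, out of 21759 gene symbols, and the highest-signal probe set was taken for each. They were represented by 60 probe sets of the 28350 on the table, because Serpinb9g had 2. The RNA came from cryosections of tibialis anterior, a fast muscle of the lower leg, of 11 male mice on a C57/B10 background, with 1 Affymetrix Mouse Gene ST 1.1 array per mouse. The 3 C57 mice were untreated wild-type controls, and the 4 mdx mice carried a nonsense mutation in Dmd, the dystrophin gene, and were not treated. The remaining 4 mdx mice carried the same mutation and received 1 tail vein injection of 12.5 mg/kg Pip6e-PMO at 12 weeks of age. Muscles of all groups were taken at 14 weeks, 2 weeks after the injection. Pip6e-PMO is a morpholino oligonucleotide joined to a cell-penetrating peptide, made to skip the mutated Dmd exon so that a shortened dystrophin can be translated. No mdx mice injected with saline or with a control oligonucleotide were analysed, so mdx with and without the injection also differed in having been injected.

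Most serpins inhibit proteases. An exposed loop of the serpin is cut by the target enzyme, which is then trapped in a covalent complex, so each molecule is used once. The letter after Serpin in the symbol names the clade: clade A and several small clades are secreted proteins of blood and tissue fluid, and clade B proteins act mainly inside cells. A few members inhibit no protease, among them Serpinh1, the collagen chaperone HSP47, and Serpinf1, pigment epithelium-derived factor. In muscle that degenerates and regenerates, as in mdx mice, leukocyte proteases, plasminogen activators and collagen synthesis are the settings in which these genes are best known.

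Of the 59 genes, 10 reached a mean intensity of 30 in at least 1 group, which was the minimum used for testing. The other 49 did not. In the symbols' clades, the minimum was reached by 2 of 22 A genes, 4 of 27 B genes, 1 of 2 E genes, 1 of 2 F genes, and the single G and H genes. The single C gene, the single D gene and both I genes stayed under it. In the coordinates of the deposited table, whose genome build is not named, 21 of the 22 A genes lay on chromosome 12 between 104852996 and 105652539, and 2 of these 21 were above the minimum. The 27 B genes were split between 15 on chromosome 13, between 32933961 and 34027865, and 12 on chromosome 1. All 4 clade B genes above the minimum were among the 15 on chromosome 13, and none of the 12 on chromosome 1 was.

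**Figure D1:**
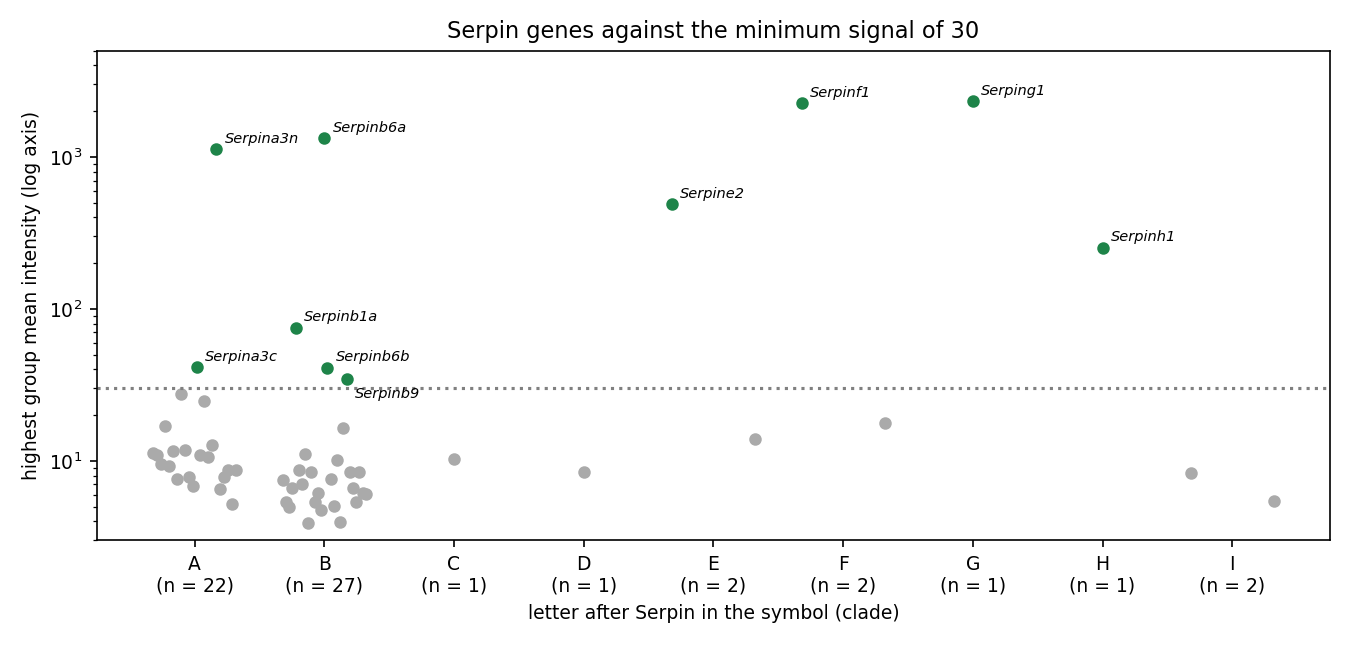
The highest of the 3 group means of each of the 59 Serpin genes, as linear intensity on a log axis, is plotted by the letter of its clade. Green points are the 10 genes at or above the minimum of 30 (dotted line), grey points are the 49 below it, and since every point is a different probe set the heights do not rank the genes.

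The genes under the minimum included those that serve mainly as blood proteins made in liver. Log2 signals of Serpinc1, antithrombin, ran from 3.15 to 3.47 over the 11 mice. Those of Serpind1, heparin cofactor II, ran from 2.96 to 3.20. Signals of Serpinf2, the plasmin inhibitor of plasma, lay between 3.89 and 4.21. All 3 ranges are under the log2 signal that matches an intensity of 30. None of 5 markers of hepatocytes or plasma (Alb, Apoa1, Ttr, Fgb and Apoh) reached the minimum by its group means either. Serpini1, neuroserpin, ranged from 2.69 to 3.17, and Serpinb5, maspin, from 2.03 to 2.34. The gene just under the minimum was Serpina1e, an alpha-1-antitrypsin gene, with a highest group mean of 27.5 in linear intensity and log2 signals from 3.94 to 5.41. The gene just above it was Serpinb9, with a highest group mean of 34.5. Serpina1a, Serpina1e, Serpinb9f and Serpinb9g are marked in the table as having probes that can match other transcripts, and all 10 genes above the minimum are marked as unique.

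Several families of duplicated genes were split by the minimum. Serpina3c and Serpina3n were above it, and the other 6 Serpina3 genes on the table (Serpina3a, b, f, h, k and m) ran from 2.66 to 4.84 over the 11 mice. The 6 alpha-1-antitrypsin genes, Serpina1a to Serpina1f, ran from 2.45 to 5.41. Of the Serpinb1 genes, Serpinb1b and Serpinb1c stayed between 2.42 and 3.28, of the Serpinb6 genes Serpinb6c, d and e between 2.14 and 3.36, and of the Serpinb9 genes 6 (Serpinb9b to Serpinb9g) between 2.17 and 3.37, each beside a relative above the minimum. No Serpinb3 gene was above it, and the 4 of them (Serpinb3a to Serpinb3d) ran from 1.56 to 3.12. The second probe set of Serpinb9g lay between 2.29 and 2.52, also low.

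The remaining low genes had no close relative above the minimum. In clade A these were Serpina5, Serpina6 (the corticosteroid carrier of plasma), Serpina7 (the thyroxine carrier), Serpina9, Serpina10, Serpina11, Serpina12 and the pseudogene Serpina4-ps1, from 2.15 to 3.63. In clade B they were Serpinb2, Serpinb5, Serpinb7, Serpinb8, Serpinb10-ps, Serpinb11, Serpinb12 and Serpinb13, from 1.84 to 4.15. Serpine3 ran from 3.43 to 3.97, and Serpini2 was between 2.19 and 2.68.

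Without the signal minimum, none of the 49 low genes was called in mdx against C57 or in treated against mdx, although 2 and 5 of them had an unadjusted p under 0.05. In treated against C57, 1 of the 49 was called, Serpinb8, with means of 4.03 and 3.61 on the log2 scale (limma, adjusted p = 0.0341), and 9 had an unadjusted p under 0.05. Over all 28350 probe sets, the same fit called 1739 in mdx against C57, 1371 in treated against mdx and 3627 in treated against C57. Signals this low lie in the range of array background, so a small difference there can also be a large one that the background hides.

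Differences between groups were tested with limma across the 14494 probe sets above the minimum. A gene is said to be called, to have risen or to have fallen where its Benjamini-Hochberg adjusted p, over all 14494, was under 0.05. Between mdx and C57 muscle, 5 of the 10 tested serpins rose and none fell: Serpina3n, Serpinb1a, Serpinb6a, Serpinb6b and Serpinh1. Of all probe sets tested, 7.06% were called higher and 4.96% lower in that comparison. The median difference of the 10 was 0.60 on the log2 scale, with a range from -0.18 to 2.67, beside a median of -0.01 over all probe sets tested, and 7 of the 10 had an unadjusted p under 0.05. In treated against mdx muscle, 1 of the 10 fell, Serpina3n, and none rose. Of all probe sets, 7.26% were called higher and 3.88% lower there, beside that 1 of 10. The median of the 10 was -0.26 (range -1.63 to 0.24), beside 0.02 over all probe sets. In treated against C57 muscle, 4 of the 10 rose and none fell: Serpinb1a, Serpinb6a, Serpinb6b and Serpinb9, all of clade B. Serpinb1a, Serpinb6b and Serpinb9 had C57 means under 30 and could be tested only because another group reached it, so their being higher than C57 is partly set by the signal minimum and the counts and medians against C57 are a description only. With a minimum of 100 the single call in treated against C57 was Serpinb6a. Called shares over the table were 15.6% higher and 8.96% lower, and the median of the 10 was 0.60 (range -0.18 to 1.19). The 3 comparisons share groups of mice, so their differences for one gene are not independent of each other.

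**Figure D2:**
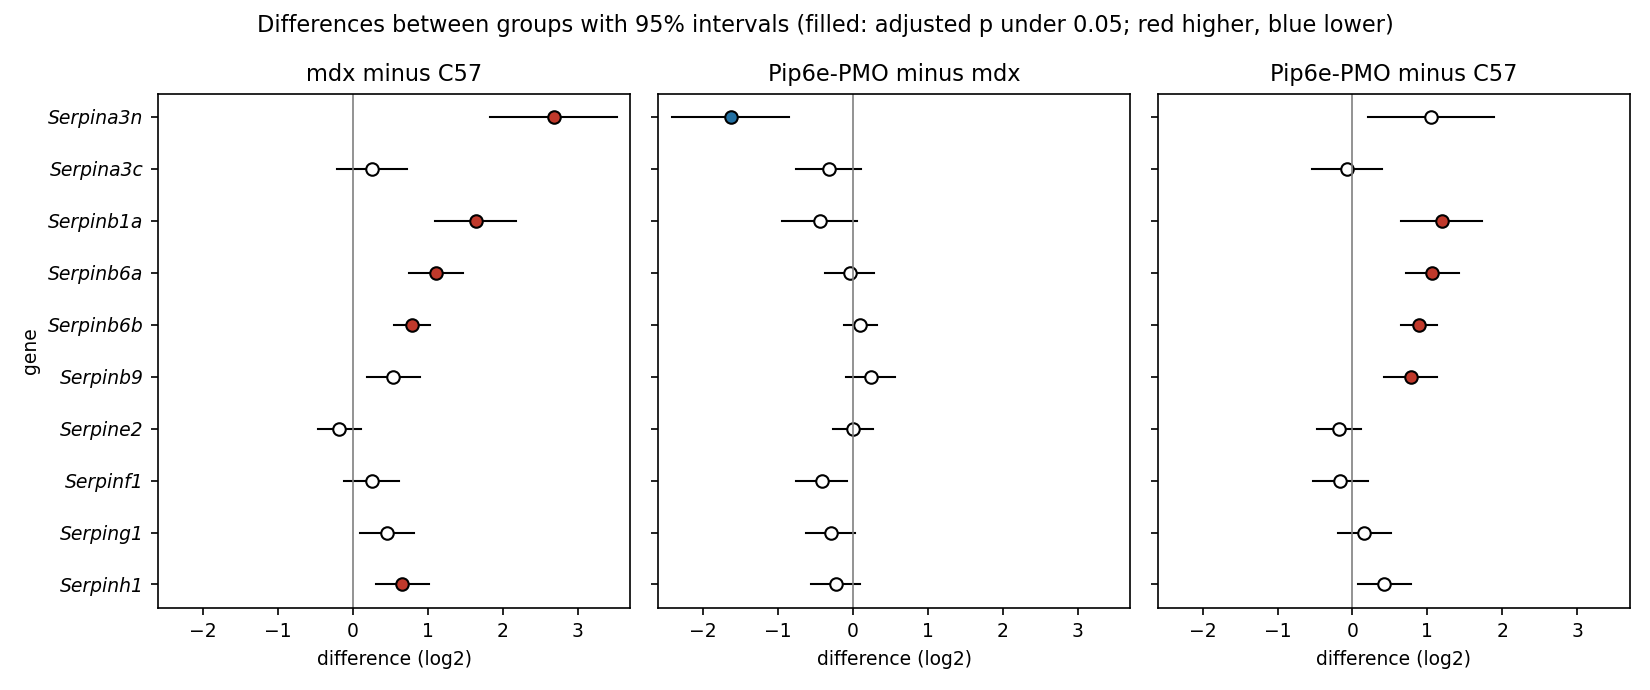
Differences between group means on the log2 scale (horizontal axis) for the 10 tested serpins (rows), with 95% intervals from limma, in each of the 3 comparisons. Red points were called higher and blue points lower. The 4 clade B genes sit between 0.78 and 1.19 in Pip6e-PMO against C57, and only Serpina3n is blue, at -1.63, in Pip6e-PMO against mdx.

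Serpina3n (probe set 10398075) is a secreted clade A inhibitor, one of the mouse genes of the alpha-1-antichymotrypsin family, whose targets include granzyme B and cathepsin G and which is made in quantity in acute inflammation. Its log2 signals were 7.82, 7.19 and 7.02 in the C57 mice, 9.48, 10.44, 9.40 and 10.75 in the mdx mice, and 7.80, 9.31, 8.22 and 8.23 in the treated mice. Every mdx mouse was above every C57 mouse and above every treated mouse, while treated mouse 1 fell within the C57 range and treated mouse 2 lay just under the lowest mdx mouse. Serpina3n rose 6.38-fold from C57 to mdx muscle, a log2 difference of 2.67 ± 0.39 (SE, 95% interval 1.83 to 3.52, limma adjusted p = 0.00101). In treated muscle it was 3.09-fold lower than in mdx muscle, a log2 difference of -1.63 ± 0.36 (SE, 95% interval -2.41 to -0.85, limma adjusted p = 0.0211). Against C57, the treated mice were 1.05 higher on the log2 scale, with an adjusted p of 0.0659 by limma and groups that overlapped.

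The fall of Serpina3n after treatment lost its call in 4 of the 11 fits that left out 1 mouse, with differences of the same direction. Without mdx mouse 4 the difference was -1.38 (adjusted p = 0.0600), without treated mouse 1 it was -1.43 (0.0589), without treated mouse 3 it was -1.57 (0.0576), and without treated mouse 4 it was -1.57 (0.0632), all by limma. In those 4 fits no serpin was called, and calls over all probe sets were 353, 490, 381 and 296 in the same order. Without treated mouse 2, the treated mouse with the highest Serpina3n, 3 serpins fell in treated against mdx: Serpina3n, Serpinf1 and Serpinh1. Calls over all probe sets then numbered 4123, so the added calls are no result about the serpins. The rise in mdx against C57 passed under all 21 alternatives, with differences from 2.43 to 2.91.

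Serpina3c (probe set 10402435), of the same family and the same cluster on chromosome 12 as Serpina3n, with other Serpina3 genes between them, did not show that pattern. The C57 mice were at 5.59, 5.09 and 4.61, the mdx mice at 4.84, 5.55, 5.58 and 5.40, and the treated mice at 4.97, 5.07, 5.01 and 5.04. The 3 groups overlapped, and the C57 mice alone spanned the whole range of the 11 mice. In mdx against C57 the log2 difference was 0.25 (95% interval -0.22 to 0.71, limma adjusted p = 0.544), and in treated against mdx it was -0.32 (95% interval -0.75 to 0.11, adjusted p = 0.293).

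The sequences before the transcription starts of Serpina3n and Serpina3c are nearly the same, and they are shown because Serpina3n was called and Serpina3c was not. Each line gives the 250 bases before the start, 5′ to 3′ on the gene's own strand, from RefSeq (build GRCm38.p6). Serpina3n lies at chr12:104406458-104406707 on the plus strand and Serpina3c at chr12:104153873-104154122 on the minus strand.
Serpina3n: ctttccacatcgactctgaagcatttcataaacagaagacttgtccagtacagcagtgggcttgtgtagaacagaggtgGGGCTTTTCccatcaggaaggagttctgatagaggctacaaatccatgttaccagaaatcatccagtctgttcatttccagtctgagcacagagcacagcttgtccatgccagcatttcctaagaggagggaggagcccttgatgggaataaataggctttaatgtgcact
Serpina3c: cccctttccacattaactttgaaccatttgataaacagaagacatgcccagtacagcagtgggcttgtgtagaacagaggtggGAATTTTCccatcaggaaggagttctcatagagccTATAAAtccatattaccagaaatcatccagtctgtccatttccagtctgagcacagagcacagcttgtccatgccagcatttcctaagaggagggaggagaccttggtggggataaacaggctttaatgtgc
Over 247 aligned bases the sequences were identical at 229, which is 92.7%, with no gap inside the alignment. Capitals mark matches, on either strand, to 7 short motifs that were searched: the TATA box (TATAAA), the GC box (GGGCGG), the CCAAT box by its own letters, the STAT site (TTCNNNGAA), the heat shock element (GAANNTTC), the AP-1 site (TGANTCA) and the beginning of the NF-kappaB site (GGGNNNTTC). Among the 32851 promoters of the same length in the RefSeq table, 12.4% held the TATA box, 32.7% the GC box, 33.8% the CCAAT box, 7.02% the STAT site, 6.69% the heat shock element, 6.75% the AP-1 site and 11.8% the NF-kappaB letters. The single match of Serpina3n was to the NF-kappaB letters, GGGCTTTTC, which start 171 bases before the transcription start. Serpina3c matched the heat shock letters, GAATTTTC, which start 167 bases before its transcription start, and the TATA letters, 132 bases before it. A match of letters is a description of the window and says nothing of whether a factor binds there.

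Clade B serpins stay mostly in the cytoplasm and nucleus, where they inhibit proteases that leak from granules or lysosomes. The 4 on chromosome 13 that could be tested were Serpinb6a, which was above the minimum of 30 in every group, and Serpinb1a, Serpinb6b and Serpinb9, which were under it in C57. Serpinb9 was also under it in mdx and entered through the treated group alone. The folds of Serpinb1a, Serpinb6b and Serpinb9 can be held down by array background. Their rises against C57 are also partly set by the minimum, which they passed only through groups where they were high. None of the 4 was called between treated and mdx muscle.

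Serpinb6a (probe set 10408600) is the mouse counterpart of human SERPINB6, an intracellular inhibitor of cathepsin G. Its signals were 9.56, 9.18 and 9.04 in C57, 10.38, 10.52, 10.22 and 10.36 in mdx, and 10.04, 10.11, 10.58 and 10.58 in treated mice. All 8 mdx mice, injected or not, were above all 3 C57 mice, and the treated mice lay on both sides of the mdx mice. The difference from C57 was 1.11 ± 0.16 in mdx (SE, 2.16-fold, limma adjusted p = 0.00118) and 1.07 ± 0.16 in treated muscle (SE, 2.10-fold, adjusted p = 0.00125). Between treated and mdx it was -0.04, with a 95% interval from -0.37 to 0.29 on the log2 scale. That interval and the interval of Serpina3n in the same comparison, -2.41 to -0.85, do not overlap.

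The promoter window of Serpinb6a is shown as that of the clade B gene with the least array background, at chr13:34002795-34003044 on the minus strand (GRCm38.p6), the first of 2 starts in the RefSeq table.
Serpinb6a: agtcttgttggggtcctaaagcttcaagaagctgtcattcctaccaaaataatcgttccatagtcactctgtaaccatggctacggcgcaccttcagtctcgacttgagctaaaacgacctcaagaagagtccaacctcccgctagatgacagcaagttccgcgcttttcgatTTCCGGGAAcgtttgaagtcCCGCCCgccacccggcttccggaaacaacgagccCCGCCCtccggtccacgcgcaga
In it the STAT letters (TTCCGGGAA) begin 77 bases before the start and the GC box occurs 2 times, 57 and 23 bases before it, on the other strand. The window of Serpinb6b held only a GC box and that of Serpinb9 held none of the 7 motifs.

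Serpinb6b (probe set 10404422), a near relative of Serpinb6a with its own gene, stood at 4.49, 4.36 and 4.54 in C57, 5.28, 5.20, 5.24 and 5.29 in mdx, and 5.22, 5.17, 5.42 and 5.60 in treated mice. Its mdx values lay close together, and the C57 mice were apart from both other groups. The rise was 0.79 ± 0.11 in mdx (SE, 1.73-fold, limma adjusted p = 0.000808) and 0.89 ± 0.11 in treated muscle (SE, 1.85-fold, adjusted p = 0.000333), and treated minus mdx was 0.10 (95% interval -0.12 to 0.32).

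Serpinb1a (probe set 10408557) inhibits neutrophil elastase, cathepsin G and proteinase 3. Signals were 4.71, 4.37 and 4.50 in C57, 6.25, 6.06, 5.52 and 6.81 in mdx, and 5.34, 6.05, 5.72 and 5.77 in treated mice. Both mdx groups were above C57, and the treated mice lay from just under the lowest mdx mouse to about the level of mdx mouse 2. Serpinb1a was 3.10-fold higher in mdx than in C57, a log2 difference of 1.63 ± 0.25 (SE, limma adjusted p = 0.00135), and 2.29-fold higher in treated than in C57 (adjusted p = 0.00607). Treated minus mdx was -0.44 (95% interval -0.94 to 0.06, adjusted p = 0.212). Under the test that the methods name, the adjusted p in mdx against C57 was 0.0600.

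Serpinb9 (probe set 10404429) is an inhibitor of granzyme B, the killing protease of cytotoxic lymphocytes. It stood at 4.46, 4.24 and 4.20 in C57, 5.07, 4.85, 4.72 and 4.71 in mdx, and 4.95, 4.90, 4.90 and 5.56 in treated mice. No mdx or treated mouse fell in the C57 range, and treated mouse 4 stood above all others. In treated against C57 the rise was 0.78 ± 0.16 (SE, 1.71-fold, limma adjusted p = 0.00626), and under the test that the methods name its adjusted p was 0.0784. Only the treated mean, 34.5 in linear intensity, reached the minimum, so this rise is partly set by the minimum and is a description only. The mdx mice differed from C57 by 0.54 ± 0.16 (SE) with an adjusted p of 0.0514, and that adjusted p ran from 0.0110 to 0.163 over 20 alternatives, 7 of which gave a call.

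**Figure D3:**
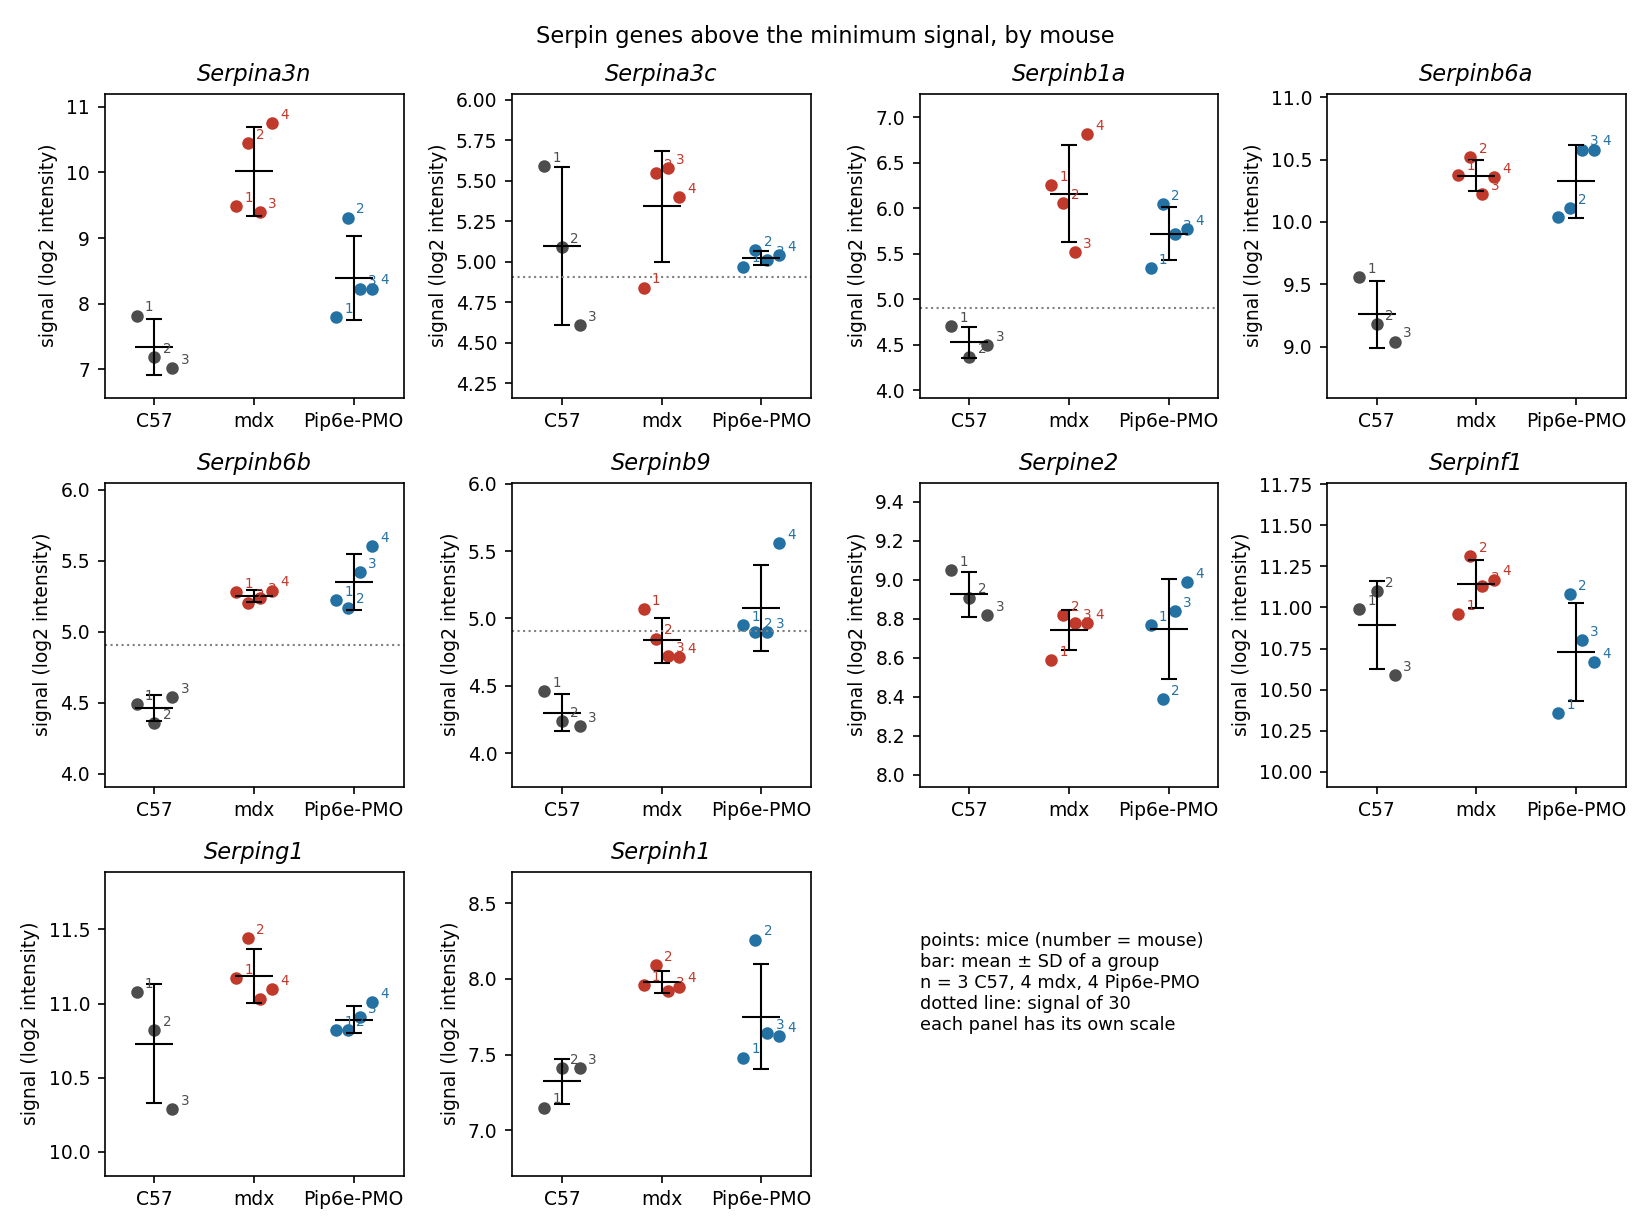
Log2 intensity of the 10 tested serpins in each mouse, 1 panel per gene with its own vertical scale. Points are mice with their number, bars are the mean and SD of 3 C57, 4 mdx and 4 Pip6e-PMO treated mice, and the dotted line, where it lies in a panel, is an intensity of 30. Serpina3n of the treated mice lies below the mdx mice, whereas Serpinb6a and Serpinb6b of the treated mice lie around the mdx mice and above C57.

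Serpinh1 (probe set 10565794), or HSP47, resides in the endoplasmic reticulum, binds procollagen and is needed for its folding. Its signals were 7.15, 7.41 and 7.41 in C57, 7.96, 8.09, 7.92 and 7.95 in mdx, and 7.48, 8.26, 7.64 and 7.62 in treated mice. The mdx mice lay close together and above C57, and in the treated group mouse 2 was above all mdx mice while the other 3 were between the C57 and the mdx mice. Serpinh1 was 1.58-fold higher in mdx than in C57, a log2 difference of 0.66 ± 0.16 (SE, limma adjusted p = 0.0197). Leaving out C57 mouse 1, C57 mouse 2 or mdx mouse 2 gave adjusted p values of 0.0775, 0.0513 and 0.0551, with differences of 0.57 to 0.70 over all mice left out in turn. Treated minus C57 was 0.43 (adjusted p = 0.0704), and treated minus mdx was -0.23 (95% interval -0.55 to 0.09, adjusted p = 0.313). Without treated mouse 2, the latter was -0.40 with an adjusted p of 0.0123 by limma, in a fit that called 4123 probe sets over the table.

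The window before the Serpinh1 start, chr7:99353240-99353489 on the minus strand (GRCm38.p6), is printed because the gene is known as a heat shock gene.
Serpinh1: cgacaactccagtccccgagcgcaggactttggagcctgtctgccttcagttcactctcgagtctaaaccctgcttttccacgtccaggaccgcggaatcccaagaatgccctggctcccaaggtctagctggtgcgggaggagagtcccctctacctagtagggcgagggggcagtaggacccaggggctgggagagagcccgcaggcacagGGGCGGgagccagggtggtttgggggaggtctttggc
Of the 7 motifs only a GC box was found, 37 bases before the start, and the heat shock letters searched are not in this window.

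Collagens and the enzymes that modify them are the clients and partners of Serpinh1. Of 17 such genes listed, 16 were tested and Plod2 was below the minimum. Of the 16, 5 rose in mdx against C57 and none fell, with a median difference of 0.47, beside 7.06% of all probe sets called higher. The genes that rose were Col3a1 (1.38), Col5a2 (1.24), Col4a1 (1.04), Col4a2 (0.96) and Col6a1 (0.90), all of them chains of fibrillar, basement membrane or microfibrillar collagen. No member was called between treated and mdx muscle, where the median was -0.04 and where a list of this size would hold few calls at the shares of the table, 7.26% higher and 3.88% lower. Beside 15.6% of all probe sets, 6 rose in treated against C57, the same 5 and the crosslinking enzyme Loxl2 (0.76). Col1a1, the main chain of type I collagen, lay between 10.63 and 11.20 in the C57 mice, between 11.07 and 11.28 in the mdx mice, and at 10.55, 11.87, 11.12 and 11.06 in the treated mice. Treated mouse 2 was the highest of all mice for Col1a1 as it was for Serpinh1.

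Serpine2 (probe set 10355984), protease nexin 1, which inhibits thrombin and urokinase, was called in no comparison and lay at 9.05, 8.91 and 8.82 in C57, at 8.59, 8.82, 8.78 and 8.78 in mdx, and at 8.77, 8.39, 8.84 and 8.99 in treated mice, which overlapped. Its difference was -0.18 in mdx against C57 (95% interval -0.47 to 0.11) and 0.01 in treated against mdx (95% interval -0.26 to 0.27). In both comparisons these were the narrowest intervals among Serpine2, Serpinf1 and Serping1.

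Genes of plasminogen activation and clotting, a list of 12, gave 9 above the minimum. Plg, F2 and Proc, which are made in liver, were below it. Against C57, 4 rose in mdx and 1 fell, with a median of 0.46, beside 7.06% of all probe sets called higher and 4.96% lower. Plat, the tissue plasminogen activator, rose by 0.76 (limma adjusted p = 0.0034), the thrombin receptor F2r by 0.80, the endothelial thrombin cofactor Thbd by 0.70 and the serpin-protease clearance receptor Lrp1 by 0.46. Procr, the endothelial protein C receptor, fell by 0.63. None of the 9 was called in treated against mdx, which at the table's shares of 7.26% and 3.88% is no result about the list. Plat, F2r, Lrp1 and F3 were higher and Procr lower in treated than in C57, beside 15.6% of all probe sets called higher and 8.96% lower.

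Serpinf1 (probe set 10388430), which inhibits no protease and limits vessel growth, was at 10.99, 11.10 and 10.59 in C57, 10.96, 11.31, 11.13 and 11.17 in mdx, and 10.36, 11.08, 10.80 and 10.67 in treated mice. The treated mice were on the low side, with mouse 2 within the mdx range. Treated minus mdx was -0.42 (95% interval -0.75 to -0.08, limma adjusted p = 0.0968). Without treated mouse 2 it was called, at -0.53 with an adjusted p of 0.0207 by limma, in a fit that called 4123 probe sets over the table. The call thus turned on that mouse, whose removal also raised the number of calls over the table. In mdx against C57 the difference was 0.25 (adjusted p = 0.406).

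Serping1 (probe set 10484463), the C1 inhibitor, blocks the C1r and C1s proteases that start the classical complement pathway. It stood at 11.08, 10.82 and 10.29 in C57, 11.17, 11.44, 11.03 and 11.10 in mdx, and 10.82, 10.82, 10.91 and 11.01 in treated mice. All 4 treated mice were under the lowest mdx mouse, by a narrow gap, and C57 mouse 1 was within the mdx range. The difference in mdx against C57 was 0.46 (95% interval 0.10 to 0.81, limma adjusted p = 0.0995), and without C57 mouse 1 it was 0.63 with an adjusted p of 0.0293. Treated minus mdx was -0.30 (adjusted p = 0.205).

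Among the 8 genes of the C1 complex and its relatives, 7 were tested and Masp2 was below the minimum. Against C57, 4 of them rose in mdx and none fell, with a median of 0.73: C1qb by 1.53, C1qc by 1.41, C1qa by 1.39 and the protease gene C1rb by 0.73. In treated against mdx, C1qb fell by 1.08 and C1qc by 0.98 and no gene rose, with a median of -0.27. C1rb (0.63) and C1s (0.65) were higher in treated than in C57, and the C1q genes were not called there. Of all probe sets tested, 7.06% were called higher in mdx against C57 and 15.6% in treated against C57. In treated against mdx, 3.88% of them were called lower.

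**Figure D4:**
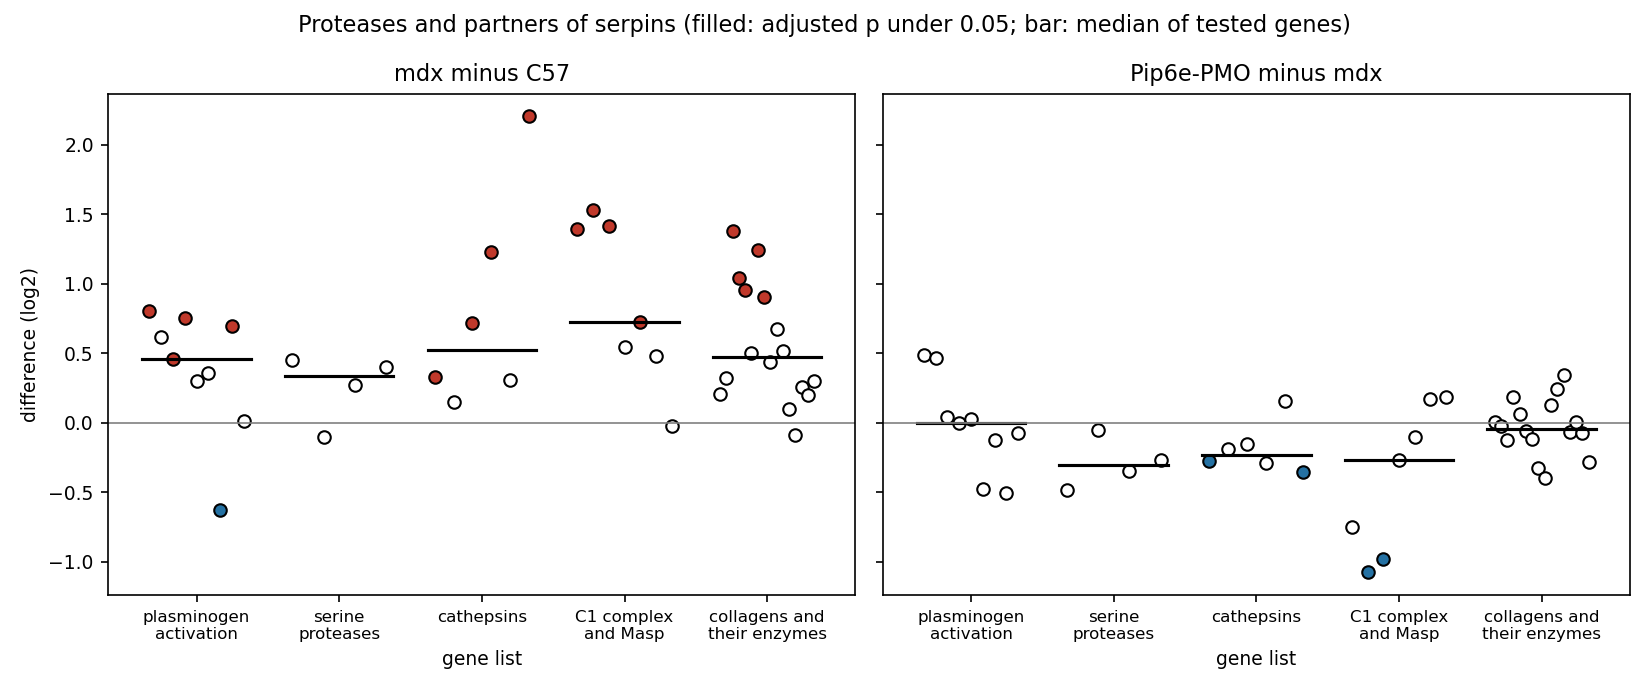
Log2 differences of the tested genes of 5 lists of proteases and partners of serpins (horizontal axis) in mdx against C57 and in Pip6e-PMO against mdx. The cathepsins shown are not named in the text as targets of a called serpin. Filled points were called higher (red) or lower (blue), bars are medians of the tested genes. In mdx 5 genes of the collagen list rose and none of the list was called after treatment, and 2 genes each of the cathepsin and C1 lists fell after treatment.

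The proteases named above as targets of the called inhibitors were all below the minimum. A list of 13 serine proteases, of leukocytes except for the digestive protease gene Ctrb1, had 4 members above the minimum (Ctrb1, Gzmm, Mcpt4 and Tpsb2), and none was called in any comparison. Elane, Ctsg and Prtn3, which encode the proteases that Serpinb1a inhibits, and Gzmb, the target of Serpinb9, were below the minimum. All 6 cathepsins listed were tested, and none of these is named above as a target of a called inhibitor. Ctss, a lysosomal cysteine protease of macrophages, rose by 2.20 in mdx against C57 (limma adjusted p = 2.3e-07), Ctsk by 1.23, Ctsh by 0.72 and Ctsb by 0.33, with a list median of 0.53. In treated against mdx, Ctss fell by 0.36 and Ctsb by 0.28, and Ctss remained higher than in C57, by 1.85. Over all probe sets, 7.06% were called higher in mdx against C57 and 3.88% lower in treated against mdx.

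Markers of some cell types also differed between the groups. The RNA was from whole muscle, where more cells of a type and more RNA per cell cannot be told apart. Of 8 macrophage markers on the arrays, 7 were tested, and 6 of these were higher in mdx than in C57. Of all probe sets tested, 7.06% were called higher in that comparison. Itgam, 1 of the 6, had a C57 mean under the minimum. Summed over the list, the linear signal of the macrophage markers reached 940 to 1371 (C57), 2472 to 3941 (mdx) and 2045 to 2605 (treated), with Cd68 lower and Mrc1 higher after treatment than in mdx. Markers of regenerating fibres, 5 of 6 called higher in mdx, had sums of 1611 to 2003 (C57), 4108 to 5865 (mdx) and 2276 to 4246 (treated). Most of each sum was the signal of Myl4, and Myh3 was under the minimum in C57. In treated against mdx, 2 of the 6 were called lower, Myl4 and Chrna1. Of all probe sets tested, 3.88% were called lower and 7.26% higher in treated against mdx. Fibroblast markers, with 2 of 7 called higher in mdx, summed to 7227 to 9040, 9785 to 10934 and 7961 to 13150. Of 7 neutrophil markers only Csf3r was above the minimum, and of 7 cytotoxic lymphocyte markers only Nkg7, both of which rose in mdx and fell after treatment. Csf3r reached the minimum in mdx alone, with log2 means of 4.22 in C57 and 4.48 in treated mice. Nkg7 was under it in C57, with a mean of 4.46. Their differences are thus partly set by the signal minimum. The part of these cell types in the serpin differences was not tested. Fast fibre markers, 7 of 7 tested and none called, summed to 49380 to 53747 over the 11 mice, which fits the tissue on the labels.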

How the data were processed

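RNA of 11 muscles (3 C57, 4 mdx, 4 Pip6e-PMO treated mdx) was measured on Affymetrix Mouse Gene ST 1.1 arrays. The authors normalized the arrays with RMA (sketch-quantile) in Affymetrix Expression Console and deposited linear intensities per probe set, with no genome build named. Here log2 of the deposited intensity was taken. RMA makes arrays alike in distribution, so a change common to most genes would be lost, and its summaries compress low signals. Median intensity was 27.5 to 28.6 per array, and 48.2 to 49.2% of probe sets reached 30. The small number of arrays limits precision. The p-values of limma set a group difference against the spread between these mice, which limma moderates with that of all probe sets tested.

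The 14494 probe sets whose mean reached 30 in any group were fitted with limma 3.58.1 in R 4.3.3, with 3 group means over all arrays and Benjamini-Hochberg adjustment. The test was checked on simulated data. Every gene described was named, those called in any comparison in full and those below the minimum by their range, and partner genes came only from the lists. The members, gene lists and tests were chosen with earlier results of these data known. 1 gene of the family is not reported here. All 59 Entrez identifiers matched the RefSeq gene table. Promoter sequences came from RefSeq (GRCm38.p6), which held 8 of the 10 tested genes by identifier (Serpinb1a and Serping1 were not matched). Alternatives were another test, a fit of 2 groups, another prior, array weights, 2 signal minimums, 2 scalings, averaged probe sets per gene, a replicate block and leaving out each mouse.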

Additional observations from a re-analysis of the deposited data

Results flagged for a closer look

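In 1 of 20 groups of 4 mice examined (the 10 tested serpins in the mdx and in the treated group), 1 mouse stood far from the other 3, by Dixon's criterion, which chance meets in about 1 of 20 groups. Serpinb9, the granzyme B inhibitor, was at 5.56 on the log2 scale in treated mouse 4 and at 4.90 to 4.95 in the other treated mice.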

How the results depend on the processing

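Counts were recomputed under 21 alternatives, 11 of which left out 1 mouse each. Serpina3c, Serpinb1a, Serpinb6b and Serpinb9 had 20, since they were not tested at a minimum signal of 100. In mdx against C57 the 5 calls became 3 with a minimum signal of 100, which left 6 serpins to test, and ranged from 4 to 6 with a mouse left out. In treated against C57 the 4 calls became 1 with a minimum of 100, and ranged from 4 to 5 with a mouse left out. In treated against mdx the single call became 0 under the test that the methods name and 3 with array weights (Serpina3n, Serpinf1 and Serpinh1), and ranged from 0 to 3 with a mouse left out: 0 without mdx mouse 4 or treated mouse 1, 3 or 4, and 3 without treated mouse 2. With that test, for which the methods give a threshold on p and also false discovery rate estimates, 6, 3 and 4 serpins passed unadjusted in mdx against C57, treated against mdx and treated against C57, and 4, 0 and 3 after Benjamini-Hochberg adjustment. Over all probe sets, calls in treated against mdx numbered 88 under that test, 4614 with array weights and 4123 without treated mouse 2. They numbered 296 to 490 without mdx mouse 4 or treated mouse 1, 3 or 4. The added calls of Serpinf1 and Serpinh1 in the fits with 4614 and 4123 calls are thus no result about the serpins. The replicate block left 5, 1 and 4 serpins called in the 3 comparisons. Of 10 same-numbered pairs of mice, 1 had deviations correlated above 0.1 (range -0.30 to 0.15), so the numbers were not taken to pair the mice. Some differences that were not called turned direction. Serpinb6a in treated against mdx was 0.15 with array weights, 0.016 with quantile normalization repeated, and -0.13 to 0.053 with a mouse left out. With a mouse left out, Serpine2 in treated against mdx ran from -0.076 to 0.12, Serpina3c in treated against C57 from -0.32 to 0.17, and Serping1 in treated against C57 from -0.06 to 0.34. Signals near background limit Serpinb1a, Serpinb6b and Serpinb9, whose C57 means were under 30.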

Other observations

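Agt, the gene of angiotensinogen, is a serpin by structure whose symbol does not start with Serpin. It stood at 8.85, 8.87 and 9.09 on the log2 scale in C57, between 8.81 and 9.11 in mdx, and at 8.42, 8.85, 8.61 and 8.90 in treated mice. The groups overlapped and the gene was called in no comparison, with a difference of -0.24 in treated against mdx (limma adjusted p = 0.195).

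Markers of adipocytes, none of which was called in mdx against C57, were lower in treated than in mdx muscle for 5 of 5 tested, beside 3.88% of all probe sets. Their summed linear signal was 573 to 993 (C57), 424 to 1301 (mdx) and 186 to 580 (treated). Albumin, a plasma protein gene under the minimum signal, stood at 5.97 in treated mouse 1 and between 2.78 and 3.94 in the other 10 mice.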
